A study of Mus musculus with 30 samples.

Results

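The 40 genes described here encode proteins that repair DNA or sense damage to it. They were taken by gene symbol from the 48440 genes of the count table, in 8 groups by role: 12 genes of nucleotide excision repair, 4 of single-strand break repair and ligation, 7 of the Fanconi anemia pathway, 6 of homologous recombination, 4 of translesion synthesis, Rrm2b for nucleotide supply, Msh6 for mismatch repair, and 5 that sense damage or carry its checkpoint signal. All 40 symbols were found. The filter on low counts kept 39 of them among 16304 tested genes, and Fancd2 stayed below it.

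Liver mRNA of wild-type female C57BL/6J mice was sequenced in 30 libraries. Each mouse received an osmotic pump at 8 weeks of age, which released either phosphate-buffered saline (PBS) or ACBP, the acyl-CoA-binding protein also called DBI, at 2.5 mg/mL. The 6 groups of 5 libraries were PBS (saline pump alone), CDDP (saline pump and cisplatin), CRS (saline pump and CRS, a second way of inducing anorexia that the labels give by its letters alone), ACBP (protein pump alone), CDDP+ACBP and CRS+ACBP. CRS began 48 hours and CDDP 72 hours after implantation, each to induce anorexia, and no group had its food restricted alone, so that the drug and lower food intake cannot be told apart. All mice had surgery and a pump, and since nothing in the labels ties each library to an animal of its own, p-values measure the spread between libraries.

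Cisplatin binds purines and ties neighbouring bases, or the opposite strands, together. Nucleotide excision repair cuts out a short stretch around such a bulky lesion. Crosslinks between strands are opened with the Fanconi anemia proteins, the gap is passed by translesion polymerases, and the broken duplex is mended by homologous recombination. The kinases ATM and ATR report the damage to CHK2, CHK1 and p53. Hepatocytes rarely divide, and the recombination and crosslink genes are best known from cells in S phase.

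The shallowest library held 13957380 reads on genes and the deepest 18479134. Levels are given in CPM, counts scaled by library size and TMM factor. Each log2 fold change was estimated by edgeR with the 30 libraries in one model and is printed ± an approximate standard error (SE). A gene was called changed at an adjusted p under 0.05 in edgeR's quasi-likelihood test. All 8 hepatocyte markers were detected in each group, with summed levels of 74600 to 103000 CPM in PBS and 78500 to 148000 in CDDP. CDDP+ACBP replicate 3 had the lowest such sum, 44770 CPM, where the next library held 73160. CDDP replicate 5 had the lowest TMM factor of all libraries, 0.701, and CDDP+ACBP replicate 3 the highest, 1.19. Muscle transcripts summed to between 3.02 and 8360 CPM over the 30 libraries. Where leaving out CDDP replicate 5 or CDDP+ACBP replicate 3 changed a call or turned the sign of a described value, this is given beside it or by count. Counts of calls from alternative fits stand without the share of all genes called in the same fit, and describe only how stable the calls were.

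Other cells of the liver moved with cisplatin, and a bulk library cannot tell fewer cells of a type from less RNA per cell. In CDDP against PBS, 7 of 8 B and plasma cell markers were lower (summed levels of 1.84 to 9 CPM against 20.8 to 33.1), as were 6 of 8 T and NK cell markers (1.23 to 4.44 against 6.57 to 10.8) and 5 of 8 Kupffer cell markers (151 to 232 against 268 to 325, with 1 marker higher). Of 8 markers of sinusoidal endothelium 4 were lower and 1 higher (154 to 228 against 231 to 300). Of 6 tested erythroid markers 5 were lower (6.97 to 9.33 against 257 to 471), with Slc4a1 at 0 reads in CDDP. Both tested neutrophil markers were higher (4.66 to 23.3 against 0.799 to 1.85), and all 8 mitochondrial mRNAs were lower (25100 to 42400 against 82500 to 115000). In CDDP+ACBP the B and plasma cell sum was 16.5 to 48.3 CPM, the T and NK cell sum 5.77 to 10.7 and the erythroid sum 166 to 1220, while the Kupffer cell sum was 141 to 218, against 298 to 387 in ACBP, with 3 of 8 markers called lower. The endothelial sum was 209 to 333 CPM in CDDP+ACBP and 206 to 274 in ACBP, the neutrophil sum 1.65 to 6 and 1.55 to 4.1, and the mitochondrial sum 45700 to 102000 and 73900 to 98200. The part of these cells in the repair genes' values was not tested.

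Repair genes differed widely in level. Per kilobase of exon and averaged over the 30 libraries, Rad23b stood highest at 18.2 CPM, followed by Ddb1 at 18, Xpa at 10.2 and Ddb2 at 8.54, all of nucleotide excision repair. At the other end were the kinase gene Atm at 0.237 CPM per kilobase and the recombination genes Palb2 at 0.128 and Rad51c at 0.122. Fancd2, whose product is tagged with ubiquitin at a crosslink, had a mean of 0.0450 CPM per kilobase and between 0 and 0.757 CPM in any library. Its CDDP libraries held 0.0569, 0.0557, 0.384, 0.101 and 0 CPM and its PBS libraries 0.12, 0.233, 0.492, 0.37 and 0.563, too few reads for a test.

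**Figure D1:**
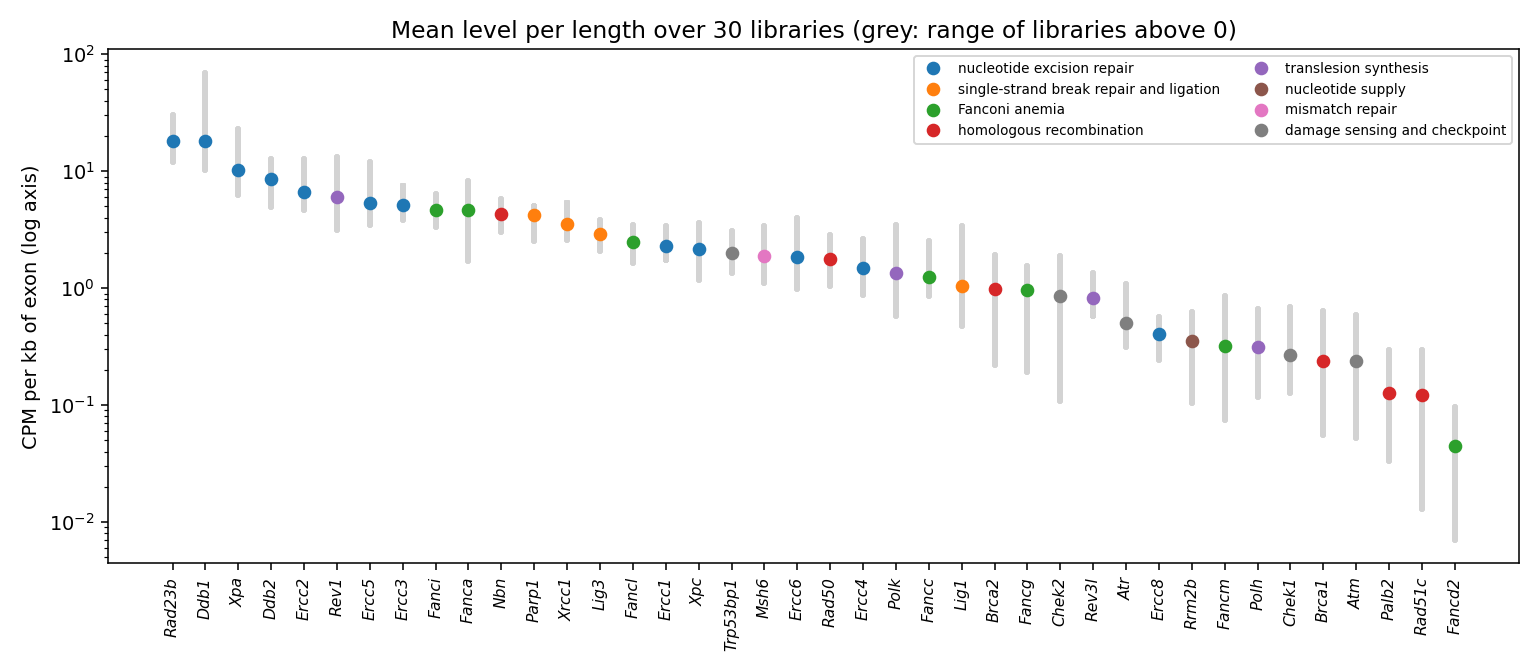
Mean CPM per kilobase of exon over 30 libraries on a log axis for each of the 40 genes, coloured by role, with a grey bar from the lowest to the highest library above 0. The 4 highest genes, Rad23b, Ddb1, Xpa and Ddb2, belong to nucleotide excision repair, and Fancd2 is lowest.

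In CDDP against PBS, 12 of the 39 tested repair genes were called, 6 higher and 6 lower. Over all tested genes 41.4% were called, 23.1% higher and 18.3% lower, so that the repair genes' share, 30.8%, was not above that of the liver's genes at large. Their median log2 fold change was 0.04, against 0.02 for all tested genes. The 6 that rose were Ddb1 and Rad23b of nucleotide excision repair, the ligase Lig1, Brca1, the polymerase Polk and the kinase Chek1. Those that fell were Ddb2, the Fanconi genes Fanca and Fancg, Brca2, the kinase Chek2 and Trp53bp1. All CDDP libraries lay above all PBS libraries for 3 of the 39 genes, where 13.3% of all genes did so, and below them for 5, where 11.4% did. Without CDDP replicate 5, the calls of Ddb2, Lig1, Fancg, Chek1 and Trp53bp1 were lost, Xrcc1 was gained as lower, and 8 genes were called. The share of all genes called in that fit is not given here.

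**Figure D2:**
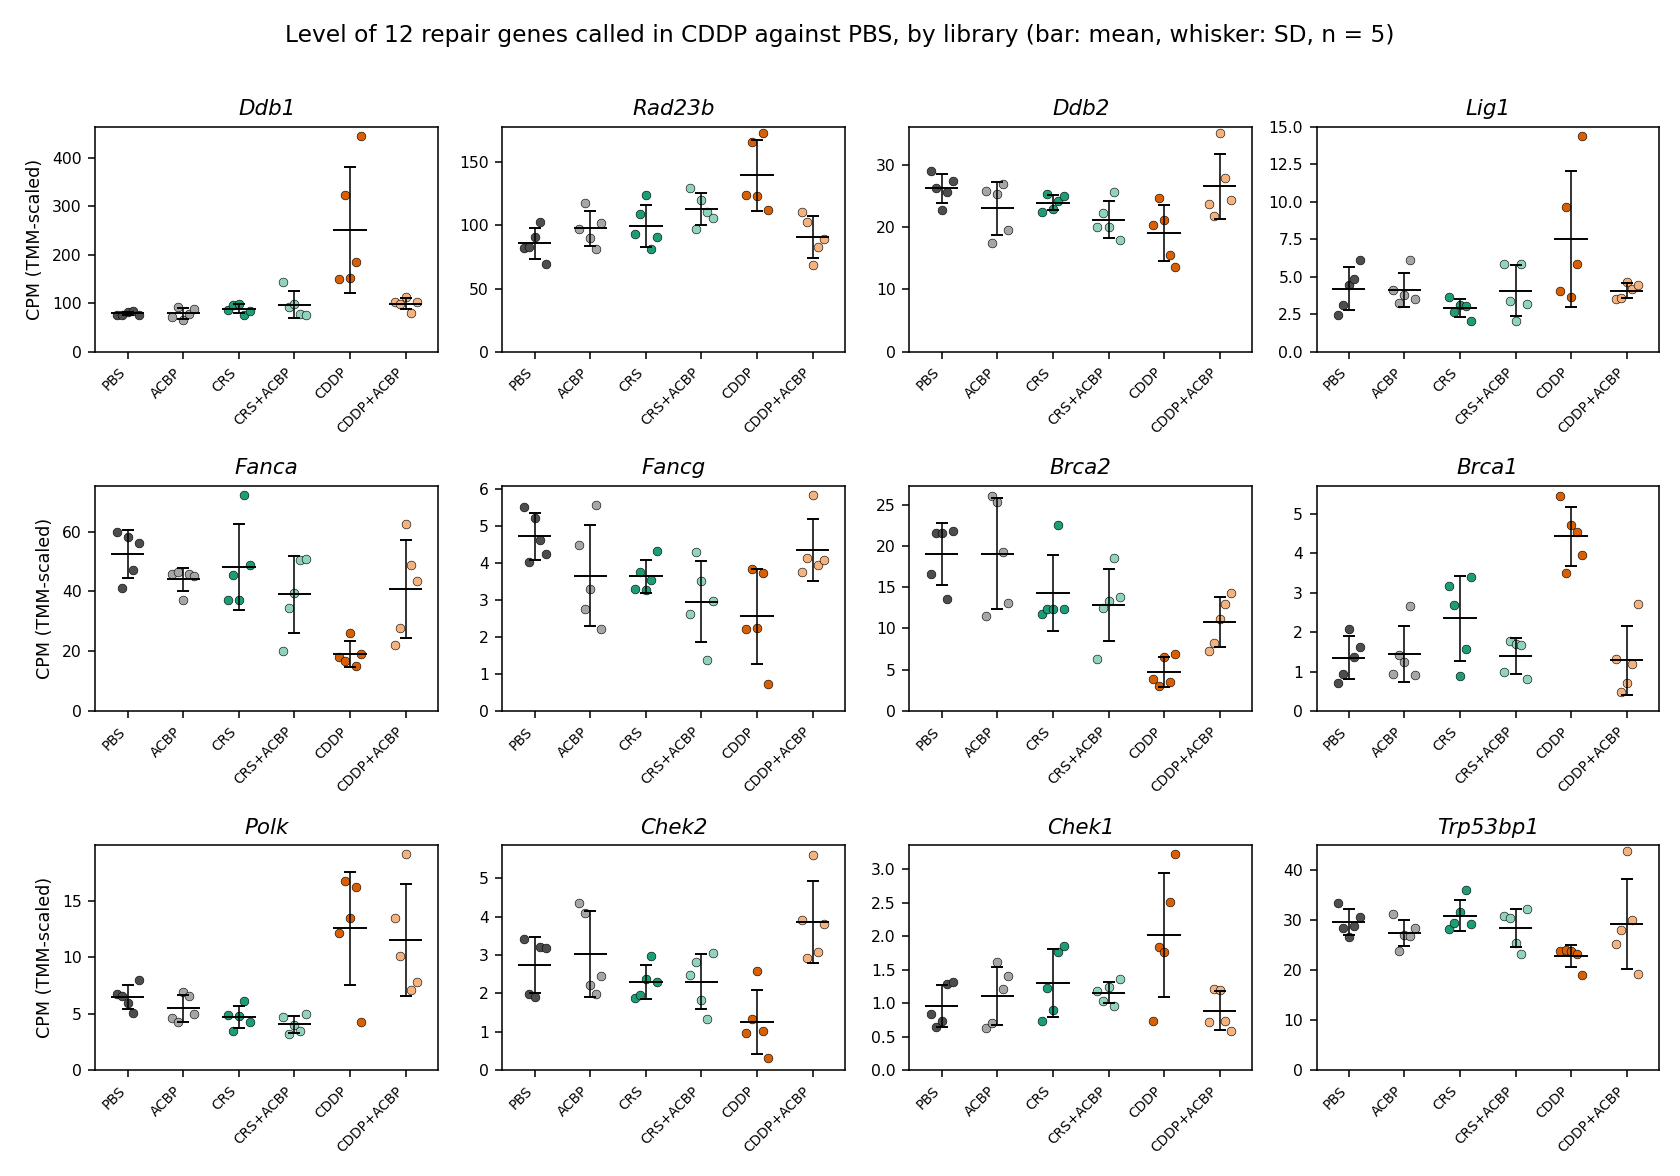
CPM of the 12 called genes in each library (points) of the 6 groups, with the mean (bar) and SD (whisker, n = 5), each axis starting at 0. The 5 CDDP libraries of Ddb1, from 150 to 445 CPM, lie above every PBS library, and those of Brca2, from 3.01 to 6.86, below every PBS library.

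Nucleotide excision repair had 2 genes higher, 1 lower and 9 not called among its 12. DDB1 and DDB2 form the complex that binds distorted DNA, and DDB1 is also the adaptor of the CUL4 ubiquitin ligases. Ddb1 (ENSMUSG00000024740, chromosome 19, 10605327 to 10629819, plus strand) stood at 76.5, 76.3, 82.1, 83.2 and 75.8 CPM in the 5 PBS libraries and at 150.0, 324, 151, 184 and 445 in the 5 CDDP libraries. Every CDDP library was higher than every PBS library, and replicates 2 and 5 were the highest. The log2 fold change was 1.67 ± 0.23 (3.18-fold, edgeR adjusted p = 2.80e-06), and 1.36 without CDDP replicate 5. Of the exon bases of Ddb1 5.12% are shared with Tkfc on the opposite strand. Tkfc was more abundant and lower in CDDP, at 588.9 CPM in PBS and 360.8 in CDDP (log2 fold change -0.71, edgeR adjusted p = 0.0260). Under the other treatments Ddb1 read 71, 92.3, 65.4, 77.3 and 88.3 CPM in ACBP, 103, 98.4, 113, 80 and 102 in CDDP+ACBP, 86.1, 96.8, 98.5, 75.7 and 84.4 in CRS and 143, 91.4, 98.2, 78.6 and 74.6 in CRS+ACBP. None of those 20 libraries reached the lowest CDDP value.

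Ddb2, the partner that recognises the lesion, moved the other way. Ddb2 (ENSMUSG00000002109, chromosome 2, 91211572 to 91236982, minus strand) had 29.1, 26.4, 22.8, 25.6 and 27.5 CPM in PBS and 20.4, 24.7, 21.2, 15.5 and 13.6 in CDDP. The groups overlapped through CDDP replicate 2, and replicates 4 and 5 were the lowest. The log2 fold change of -0.46 ± 0.15 passed the edgeR test (adjusted p = 0.0180), and without CDDP replicate 5 it was -0.36 (adjusted p = 0.0596). Levels of Ddb2 were 25.9, 17.5, 25.4, 26.9 and 19.5 CPM in ACBP, 23.7, 21.8, 35.1, 27.9 and 24.4 in CDDP+ACBP, 22.5, 25.3, 22.9, 24.2 and 25 in CRS and 20, 22.3, 20.1, 25.7 and 18 in CRS+ACBP. Of its exon bases 23.8% are shared with Acp2 on the opposite strand, which read 52.8 CPM in PBS and 46.7 in CDDP.

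RAD23B holds and stabilises XPC, the sensor of helix distortion. Rad23b (ENSMUSG00000028426, chromosome 4, 55350043 to 55392237, plus strand) had 82.5, 82.6, 91, 103 and 69.8 CPM in PBS against 124, 166, 123, 173 and 112 in CDDP, with no overlap. Its log2 fold change was 0.70 ± 0.16 (edgeR adjusted p = 0.000782). The remaining groups read 97.2, 118, 90.1, 81.1 and 102 CPM (ACBP), 111, 103, 68.4, 82.6 and 89.6 (CDDP+ACBP), 93.6, 109, 124, 81.1 and 91.1 (CRS) and 130.0, 97.3, 120.0, 111 and 106 (CRS+ACBP), so that 1 library of ACBP, 1 of CRS and 2 of CRS+ACBP came into the CDDP range. Its partner Xpc did not pass, with 10, 12.9, 12.5, 12.4 and 13.6 CPM in PBS and 12.9, 17.5, 11.8, 16.4 and 19.7 in CDDP and a log2 fold change of 0.35 ± 0.19 (edgeR adjusted p = 0.139).

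The nucleases and helicases of the pathway were not called. Ercc5 encodes XPG, one of the enzymes that cut out the damaged stretch. It read 43.1, 24, 28.5, 26.5 and 38.9 CPM in PBS and 25.5, 35.9, 36.4, 29.3 and 38.8 in CDDP, a log2 fold change of 0.04 ± 0.23 (-0.02 without CDDP replicate 5), and ranged over 24.6 to 32.5 in ACBP, 23.7 to 41.2 in CRS, 20.2 to 34.8 in CRS+ACBP and 20.7 to 70 in CDDP+ACBP. The top of the last range is replicate 3 of that group. Ercc2 encodes XPD, a helicase of the transcription factor TFIIH that opens the DNA around the lesion. Its levels were 37.4, 19.8, 26.2, 28.2 and 36.8 CPM in PBS and 25.6, 26, 26.1, 22.2 and 53.2 in CDDP, where replicate 5 stood far above the other 4. That is a log2 fold change of 0.04 ± 0.21, and of -0.25 without CDDP replicate 5. In the remaining groups Ercc2 spanned 23.1 to 31.6 CPM (ACBP), 23.5 to 32.7 (CRS), 19.6 to 30.8 (CRS+ACBP) and 19.8 to 41.7 (CDDP+ACBP). Xpa, Ercc1, Ercc3, Ercc4, Ercc6 and Ercc8 had log2 fold changes from -0.40 (Ercc6, the transcription-coupled repair factor CSB) to 0.38 (Xpa, which verifies the lesion). Xpa stood at 43.9 CPM in CDDP replicate 5 and at 11.9 to 23.7 in the other CDDP libraries, and without that replicate its value was -0.03.

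Single-strand break repair and ligation had 1 gene higher and none lower among 4. LIG1 seals nicks left by replication and by excision repair. Lig1 (ENSMUSG00000056394, chromosome 7, 13277283 to 13311433, plus strand) had 2.45, 3.14, 4.42, 4.87 and 6.13 CPM in PBS and 4.04, 9.69, 3.68, 5.85 and 14.4 in CDDP. Replicates 2 and 5 of CDDP were above every PBS library, and the other 3 lay among them. In log2 units the change was 0.84 ± 0.32 (edgeR adjusted p = 0.0385), and without CDDP replicate 5 it was 0.47 (adjusted p = 0.227). Lig1 read 4.1, 3.27, 3.76, 6.1 and 3.5 CPM in ACBP, 3.5, 3.61, 4.67, 4.16 and 4.47 in CDDP+ACBP, 3.63, 2.64, 3.14, 3.05 and 2.04 in CRS and 5.85, 3.38, 2.07, 5.82 and 3.19 in CRS+ACBP.

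Parp1, whose product binds strand breaks and marks them with ADP-ribose chains, read 23, 23, 25, 21.4 and 16.6 CPM in PBS and 24.3, 16.4, 24.7, 24.3 and 13.4 in CDDP, with replicates 2 and 5 of CDDP the lowest. The log2 fold change was -0.08 ± 0.16, and 0.04 without CDDP replicate 5. Parp1 spanned 20.4 to 26.5 CPM in ACBP, 19.2 to 23.8 in CRS, 16.3 to 26.6 in CRS+ACBP and 16.6 to 26.3 in CDDP+ACBP. Lig3, the ligase that works with XRCC1, had 22.1, 20.4, 17.9, 20 and 20.6 CPM in PBS and 24.7, 27.9, 20.6, 21.5 and 26.1 in CDDP, with 3 CDDP libraries above the PBS range. Its log2 fold change of 0.26 ± 0.14 did not pass (edgeR adjusted p = 0.143), and its range was 15.8 to 22.3 CPM in ACBP, 15 to 23 in CRS, 18.4 to 27.4 in CRS+ACBP and 16.2 to 25 in CDDP+ACBP. Xrcc1, the scaffold of the pathway, was at -0.24 ± 0.18.

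Of 6 tested Fanconi anemia genes none was higher and 2 were lower. FANCA and FANCG are subunits of the core complex that acts as a ubiquitin ligase at crosslinks. Fanca (ENSMUSG00000032815, chromosome 8, 123268300 to 123318576, minus strand) stood at 60, 41.1, 58.1, 47.3 and 56.1 CPM in PBS and at 18, 16.7, 26.2, 15.1 and 19 in CDDP. The highest CDDP library was below the lowest PBS library. That is a log2 fold change of -1.47 ± 0.25 (edgeR adjusted p = 4.08e-05), a level 2.76-fold lower. In the other groups Fanca read 45.7, 46.4, 37.2, 45.9 and 45.2 CPM (ACBP), 21.9, 27.7, 62.7, 48.8 and 43.4 (CDDP+ACBP), 37.1, 45.4, 37.1, 72.4 and 48.8 (CRS) and 19.9, 34.6, 39.3, 50.4 and 50.7 (CRS+ACBP). Of these 20 libraries, replicate 1 of CDDP+ACBP and replicate 1 of CRS+ACBP lay within the CDDP range. Fanca shares 920 of its exon bases, 10.5%, with Zfp276 on the opposite strand. Zfp276 fell as well, from 102.6 to 39.8 CPM (log2 fold change -1.37, edgeR adjusted p = 3.01e-05), and whether the reads were counted by strand is not given in the sources used here.

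Fancg (ENSMUSG00000028453, chromosome 4, 43002343 to 43010506, minus strand) read 5.5, 4.01, 5.22, 4.62 and 4.25 CPM in PBS and 2.22, 3.84, 2.25, 3.73 and 0.726 in CDDP, again with every CDDP library below every PBS library. Its log2 fold change was -0.87 ± 0.31 (edgeR adjusted p = 0.0251), and -0.65 without CDDP replicate 5 (adjusted p = 0.0632). The ACBP libraries of Fancg held 4.48, 2.75, 3.29, 5.55 and 2.21 CPM, the CDDP+ACBP libraries 3.74, 4.14, 5.82, 3.93 and 4.08, the CRS libraries 3.29, 3.74, 3.26, 3.54 and 4.33 and the CRS+ACBP libraries 2.61, 4.3, 3.5, 1.38 and 2.98. Each of these 4 groups had libraries within the CDDP range.

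The other Fanconi genes were not called. Fanci, which pairs with FANCD2 in the clamp on DNA, read 27.9, 24.6, 30.4, 26.4 and 26.8 CPM in PBS and 22, 29.6, 20, 19.2 and 34.5 in CDDP, a log2 fold change of -0.12 ± 0.15. In CDDP 3 libraries lay below and 1 above the PBS range. Over the remaining groups Fanci ran over 24.7 to 28.7 CPM (ACBP), 23.9 to 29.5 (CRS), 24.9 to 36.6 (CRS+ACBP) and 20.5 to 34.5 (CDDP+ACBP). Fancc, a core complex subunit, had 8.31, 8.55, 11.2, 10.5 and 14.3 CPM in PBS and 12.2, 7.13, 9.99, 7.66 and 21.3 in CDDP, with replicate 5 the highest, and a log2 fold change of 0.14 ± 0.22, which turned to -0.19 without that replicate. Its other ranges were 7.81 to 10.6 CPM in ACBP, 7.92 to 11.1 in CRS, 8.95 to 11.1 in CRS+ACBP and 8.18 to 13.9 in CDDP+ACBP. Fancl, the ligase subunit, and Fancm, the translocase that finds stalled forks, were at 0.07 ± 0.19 and -0.05 ± 0.35.

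Among 6 genes of homologous recombination, 1 rose and 1 fell, and these were the 2 BRCA genes. BRCA1 directs broken ends towards recombination, and BRCA2 acts at a later step of the same repair. Brca1 (ENSMUSG00000017146, chromosome 11, 101488764 to 101551955, minus strand) had 0.718, 0.931, 2.09, 1.36 and 1.63 CPM in PBS and 5.46, 3.51, 4.72, 4.54 and 3.95 in CDDP, without overlap. That is between 12 and 34 reads per PBS library and between 49 and 96 per CDDP library. In log2 units the change was 1.72 ± 0.41 (3.29-fold, edgeR adjusted p = 0.00142). Elsewhere Brca1 read 0.946, 1.41, 1.25, 2.66 and 0.921 CPM in ACBP, 1.31, 0.478, 0.707, 1.2 and 2.72 in CDDP+ACBP, 3.18, 2.7, 0.896, 1.56 and 3.4 in CRS and 0.995, 1.78, 1.69, 1.68 and 0.814 in CRS+ACBP. All of those libraries lay below the lowest CDDP library.

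Brca2 (ENSMUSG00000041147, chromosome 5, 150522630 to 150570329, plus strand) stood at 16.6, 21.5, 21.5, 13.6 and 21.8 CPM in PBS and at 3.81, 3.01, 6.58, 3.48 and 6.86 in CDDP, where every library was below every PBS library. The log2 fold change was -2.01 ± 0.29, a level 4.02-fold lower (edgeR adjusted p = 6.83e-06), and the most negative among the 39 genes. Levels were 11.5, 26.1, 25.3, 19.3 and 13.1 CPM in ACBP, 7.31, 8.18, 11.1, 12.9 and 14.3 in CDDP+ACBP, 11.8, 12.4, 12.4, 22.5 and 12.4 in CRS and 6.28, 12.5, 13.3, 18.5 and 13.8 in CRS+ACBP. Replicate 1 of CRS+ACBP was the 1 library of these 20 within the CDDP range. Both BRCA genes kept their call in all 38 alternative analyses.

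NBN and RAD50 belong with MRE11 to the complex that holds broken ends. Nbn read 9.81, 12.2, 10.8, 13.7 and 7.69 CPM in PBS and 9.39, 11.1, 8.45, 12.3 and 8.23 in CDDP, with a log2 fold change of -0.13 ± 0.17. In the 4 other groups its values lay within 9.02 to 12.8 CPM (ACBP), 9.51 to 13.1 (CRS), 10.4 to 12.8 (CRS+ACBP) and 7.81 to 14.8 (CDDP+ACBP). Rad50 had 11.4, 8.73, 9.83, 9.55 and 12.3 CPM in PBS and 7.17, 8.75, 6.8, 8.22 and 9.28 in CDDP, with 3 of 5 CDDP libraries below the PBS range. Its log2 fold change of -0.37 ± 0.17 had an unadjusted p of 0.0370 in edgeR and did not pass after adjustment (adjusted p = 0.0790), though it passed without CDDP+ACBP replicate 3 (adjusted p = 0.0455). Rad50 ranged over 9.3 to 11.5 CPM in ACBP, 9.07 to 11.7 in CRS, 5.64 to 9.16 in CRS+ACBP and 8.54 to 15.4 in CDDP+ACBP. Palb2, which links the BRCA proteins, and Rad51c, another recombination gene, had means of 1.08 ± 0.666 and 0.484 ± 0.192 CPM (SD, n = 5) in PBS, a level at which their log2 fold changes of -0.68 ± 0.48 and 0.76 ± 0.65 were poorly determined.

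Translesion synthesis had 1 gene higher and none lower among 4. Polk encodes polymerase kappa, which extends DNA past bulky lesions. Polk (ENSMUSG00000021668, chromosome 13, 96480690 to 96542579, minus strand) had 6.76, 6.57, 5.9, 5.05 and 7.94 CPM in PBS and 12.1, 16.7, 13.5, 16.2 and 4.28 in CDDP. Replicate 5 was below every PBS library and the other 4 were above all of them. That is a log2 fold change of 0.96 ± 0.28 (edgeR adjusted p = 0.00628), and 1.18 without CDDP replicate 5 (adjusted p = 0.000279). Polk read 4.61, 4.29, 6.87, 6.58 and 4.98 CPM in ACBP, 13.5, 10.1, 19.1, 7.06 and 7.78 in CDDP+ACBP, 4.88, 3.5, 4.8, 6.09 and 4.27 in CRS and 4.67, 3.19, 4.01, 3.48 and 4.95 in CRS+ACBP. Its CDDP+ACBP libraries all lay above its ACBP libraries, the highest being replicate 3.

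REV1 is the scaffold of the translesion polymerases, and REV3L the catalytic subunit of polymerase zeta. Rev1 had 28.9, 42.3, 42.7, 40.6 and 50.8 CPM in PBS and 37.9, 33.8, 38, 25.8 and 29 in CDDP, a log2 fold change of -0.32 ± 0.21. It spanned 27.9 to 36.2 CPM in ACBP, 32.3 to 50.2 in CRS, 19.3 to 35.1 in CRS+ACBP and 29.4 to 81 in CDDP+ACBP, with replicate 3 of CDDP+ACBP far above the rest. Of the exon bases of Rev1 26.6% are shared with Eif5b on the opposite strand. Eif5b read 180 CPM in PBS and 111.2 in CDDP (log2 fold change -0.69, edgeR adjusted p = 0.0233). Rev3l read 16, 13.2, 10.3, 11.5 and 15.9 CPM in PBS and 10.4, 9.14, 9.82, 9.43 and 12.6 in CDDP, a log2 fold change of -0.38 ± 0.19 that did not pass (edgeR adjusted p = 0.111). Its ranges were 9.24 to 15.8 CPM (ACBP), 7.66 to 12.2 (CRS), 8.04 to 13.3 (CRS+ACBP) and 9.56 to 17.8 (CDDP+ACBP). Polh, the polymerase eta gene, was at 0.45 ± 0.35.

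Rrm2b and Msh6 each stand alone for their role. Rrm2b encodes the p53-inducible small subunit of ribonucleotide reductase, which supplies nucleotides outside S phase. It read 4.96, 5.06, 2.7, 3.33 and 4.25 CPM in PBS and 2.16, 2.28, 3.4, 5.19 and 3.55 in CDDP, so that the groups overlapped (log2 fold change -0.29 ± 0.32, edgeR adjusted p = 0.488). In the other groups it spanned 0.961 to 3.75 CPM (ACBP), 1.84 to 5.67 (CRS), 1.74 to 3.93 (CRS+ACBP) and 2.59 to 3.7 (CDDP+ACBP). MSH6 is a protein that recognises mismatched bases. Msh6 had 8.79, 5.82, 6.94, 8.13 and 9.31 CPM in PBS and 9.04, 9.3, 7.9, 10.9 and 10.6 in CDDP, a log2 fold change of 0.29 ± 0.19 (adjusted p = 0.226), with ranges of 7.24 to 9.6 CPM in ACBP, 4.82 to 7.68 in CRS, 6.01 to 9.89 in CRS+ACBP and 6.55 to 14.7 in CDDP+ACBP.

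Of the 5 sensing and checkpoint genes 1 rose and 2 fell, and the checkpoint kinases moved in opposite directions. CHK1 is the effector of ATR and restrains entry into mitosis. Chek1 (ENSMUSG00000032113, chromosome 9, 36708482 to 36727065, minus strand) read 0.837, 0.64, 0.737, 1.29 and 1.31 CPM in PBS and 0.739, 1.84, 1.76, 2.52 and 3.23 in CDDP, with 4 CDDP libraries above all PBS libraries and replicate 1 among them. That is between 13 and 50 reads per CDDP library. In log2 units the change was 1.05 ± 0.36 (edgeR adjusted p = 0.0215), and 0.83 without CDDP replicate 5 (adjusted p = 0.0787). Chek1 was at 0.631, 0.704, 1.61, 1.21 and 1.41 CPM in ACBP, 0.713, 1.22, 1.2, 0.74 and 0.583 in CDDP+ACBP, 0.737, 1.23, 0.896, 1.77 and 1.86 in CRS and 1.18, 1.04, 1.25, 0.96 and 1.36 in CRS+ACBP.

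CHK2 is the effector of ATM. Chek2 (ENSMUSG00000029521, chromosome 5, 110839979 to 110874145, plus strand) had 3.41, 1.98, 1.91, 3.2 and 3.19 CPM in PBS and 0.967, 1.34, 2.58, 1.01 and 0.323 in CDDP, between 4 and 47 reads. All CDDP libraries but replicate 3 were below the PBS range. The log2 fold change was -1.12 ± 0.35 (edgeR adjusted p = 0.0122). Chek2 read 4.35, 4.1, 2.21, 1.99 and 2.46 CPM in ACBP, 3.92, 2.92, 5.6, 3.07 and 3.82 in CDDP+ACBP, 1.87, 1.96, 2.37, 2.98 and 2.29 in CRS and 2.49, 2.82, 1.82, 1.32 and 3.05 in CRS+ACBP, and every CDDP+ACBP library stood above every CDDP library.

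TRP53BP1 (53BP1) gathers at broken ends and favours their direct joining. Trp53bp1 (ENSMUSG00000043909, chromosome 2, 121193281 to 121271407, minus strand) had 33.4, 28.3, 26.5, 28.8 and 30.6 CPM in PBS and 23.8, 24, 23.8, 23.3 and 19 in CDDP, a small shift without overlap. The log2 fold change of -0.37 ± 0.15 was just past the threshold (edgeR adjusted p = 0.0436). The call was lost when any CDDP library was left out, and likewise without PBS replicate 1, 2, 4 or 5 or CRS replicate 5. With CDDP replicate 5 and CDDP+ACBP replicate 3 both left out it passed (edgeR adjusted p = 0.0399). Trp53bp1 stood at 31.2, 23.8, 27, 26.7 and 28.3 CPM in ACBP, 25.2, 28, 43.7, 29.9 and 19.3 in CDDP+ACBP, 28.2, 29.3, 31.6, 35.9 and 29.2 in CRS and 30.7, 30.4, 25.4, 23.3 and 32.2 in CRS+ACBP. It shares 15% of its exon bases with Tubgcp4 on the opposite strand, which read 24.5 CPM in PBS and 20.6 in CDDP (log2 fold change -0.25, edgeR adjusted p = 0.123).

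The apical kinases were not called in this comparison. Atr read 16.4, 9.13, 10.4, 12 and 9.31 CPM in PBS and 11.3, 17.4, 11.5, 11.1 and 25.4 in CDDP, with replicates 2 and 5 above the PBS range and a log2 fold change of 0.42 ± 0.22 (edgeR adjusted p = 0.132), or 0.16 without CDDP replicate 5. It ranged over 8.55 to 11.5 CPM in ACBP, 9.94 to 17 in CRS, 9.5 to 11.7 in CRS+ACBP and 7.38 to 15.9 in CDDP+ACBP. Atm had 2.87, 2.27, 2.52, 2.28 and 2.38 CPM in PBS and 1.71, 2.06, 2.03, 2.22 and 0.887 in CDDP. Every CDDP library was below every PBS library, yet the log2 fold change of -0.46 ± 0.35 did not pass (edgeR adjusted p = 0.309). Its values elsewhere were 2.71, 2.11, 1.79, 1.87 and 1.54 CPM in ACBP, 3.09, 3.61, 6.14, 3.99 and 1.56 in CDDP+ACBP, 2.05 to 3.46 in CRS and 0.54 to 3.32 in CRS+ACBP.

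Promoter sequence was described for the 32 genes with an entry in RefSeq's table of build GRCm38.p6, from 250 bases before to 50 after each start. Xpc, Ddb2, Fancd2, Nbn, Rad50, Rrm2b, Ercc3 and Rev3l had no entry and were not searched, so the counts below say nothing of them. Both strands were searched for the p53 half-site (by its usual consensus), for the E2F motifs TTTCCCGC and TTTGGCGC, and for CCAAT. Of these 32 genes 3 held a p53 half-site (Polk, Fanca and Fancg), where 9.55% of 27025 genes did, and none held the full p53 site of adjoining half-sites, where 0.0740% did. An E2F motif stood in 5 (Brca2, Chek2, Fancg, Rad51c and Msh6), where 1.80% of genes held one, and CCAAT in 15, where 41.1% did. The stretches below are shown because each belongs to a gene called in CDDP against PBS and holds one of the first 2 motifs. The motif is in capitals and each stretch is read along its gene. They are from chr13:96519338-96519437 (minus strand, Polk, a start that lies inside the longest annotated transcript), chr8:123318586-123318685 (minus, Fanca), chr4:43010346-43010466 (minus, Fancg, p53 half-site first and E2F motif last), chr5:150522407-150522506 (plus, Brca2) and chr5:110839785-110839884 (plus, Chek2).
Polk: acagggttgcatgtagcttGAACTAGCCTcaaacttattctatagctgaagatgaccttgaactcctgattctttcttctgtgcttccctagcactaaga
Fanca: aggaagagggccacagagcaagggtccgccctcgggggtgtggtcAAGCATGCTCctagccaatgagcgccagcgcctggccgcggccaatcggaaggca
Fancg: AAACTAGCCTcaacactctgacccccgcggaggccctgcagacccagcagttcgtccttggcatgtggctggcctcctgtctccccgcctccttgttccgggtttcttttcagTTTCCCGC
Brca2: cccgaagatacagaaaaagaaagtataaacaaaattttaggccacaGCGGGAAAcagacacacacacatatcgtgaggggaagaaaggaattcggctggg
Chek2: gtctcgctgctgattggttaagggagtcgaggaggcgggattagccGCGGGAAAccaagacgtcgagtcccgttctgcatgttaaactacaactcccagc
Polk rose while Fanca and Fancg fell, so that the genes with a p53 half-site did not share a direction. Of the 5 genes with an E2F motif, the 3 called ones, Brca2, Chek2 and Fancg, were lower in CDDP. Rad51c and Msh6 were not called and had positive log2 fold changes (0.76 ± 0.65 and 0.29 ± 0.19). The 5 genes thus did not share a direction either. A match describes these letters and is not evidence of binding.

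Under the ACBP pump the effect of cisplatin was measured against the ACBP group. None of the 39 tested repair genes was called in CDDP+ACBP against ACBP, where 21 of all tested genes (0.129%) were. At an unadjusted p under 0.05, edgeR's test held 5 of the 39, beside 4.85% of all tested genes. Polk came nearest, with a log2 fold change of 1.07 ± 0.28 close to that under the PBS pump and an edgeR adjusted p of 0.154. It passed in DESeq2 (adjusted p = 0.0435), in limma voom (adjusted p = 0.0257) and in edgeR without CDDP replicate 5 (adjusted p = 0.0347), each of which called 1 repair gene. Brca2 was lower by -0.83 ± 0.28 on the same scale (edgeR adjusted p = 0.509), and Atm stood at 0.88 ± 0.35 (adjusted p = 0.812). Polk and Ercc8 were the 2 genes with all CDDP+ACBP libraries above all ACBP libraries, where 0.343% of all genes were so placed.

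Of the 12 genes called under the PBS pump, 4 had the same sign under the ACBP pump and 8 the opposite sign. Polk was nearly unchanged, at 0.96 under the PBS pump and 1.07 under the ACBP pump. The 12 were picked by their calls under the PBS pump, so the values under the 2 pumps were not selected alike. Ddb1 was at 0.33 ± 0.22, Rad23b at -0.10 ± 0.16, Brca1 at -0.17 ± 0.41, and Chek1 at -0.32 ± 0.37, all as log2 fold changes in CDDP+ACBP against ACBP. Fanca was at -0.11 ± 0.24, Fancg at 0.25 ± 0.31, and Chek2 at 0.36 ± 0.34. Ddb2 was at 0.21 ± 0.15, Lig1 at -0.02 ± 0.32 and Trp53bp1 at 0.09 ± 0.15. Without CDDP+ACBP replicate 3 the log2 fold changes of 11 of the 39 genes under the ACBP pump turned sign, none of them called. The median absolute log2 fold change over the 39 genes was 0.374 under the PBS pump and 0.225 under the ACBP pump.

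**Figure D3:**
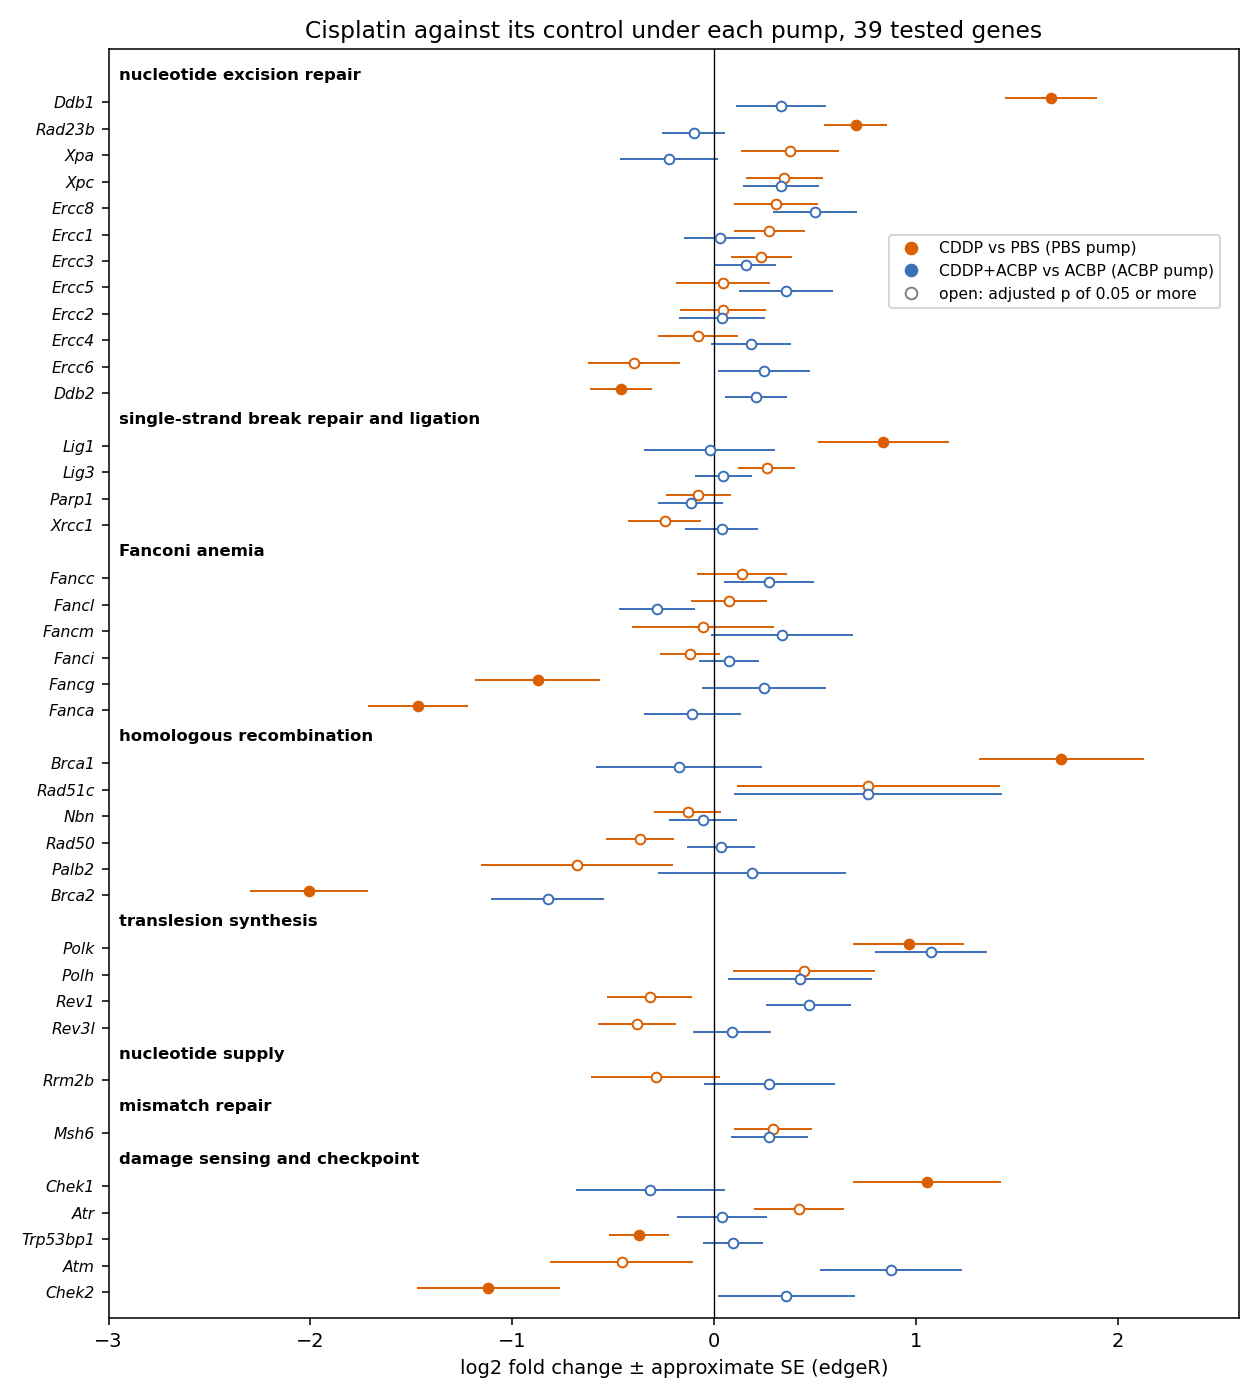
Log2 fold change ± approximate SE of the 39 tested genes for cisplatin under the PBS pump (orange, CDDP against PBS) and under the ACBP pump (blue, CDDP+ACBP against ACBP), grouped by role. Filled points passed the edgeR threshold, 12 under the PBS pump and 0 under the ACBP pump, and Polk lies near 1 under both.

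Whether the effect of cisplatin differed between the pumps was tested by the interaction. It was called for 7 of the 39 genes, 17.9%, beside 19.7% of all tested genes (8.38% positive, 11.3% negative). The difference (effect under the ACBP pump minus effect under the PBS pump) was negative for Ddb1 at -1.34 ± 0.31 (edgeR adjusted p = 0.00431), Brca1 at -1.89 ± 0.58 (adjusted p = 0.0213) and Rad23b at -0.80 ± 0.22 (adjusted p = 0.0119). It was positive for Fanca at 1.36 ± 0.34 (edgeR adjusted p = 0.00709), Chek2 at 1.47 ± 0.49 (adjusted p = 0.0326), Brca2 at 1.18 ± 0.40 (adjusted p = 0.0358) and Ddb2 at 0.67 ± 0.22 (adjusted p = 0.0307). For Polk the difference was 0.11 ± 0.39, with an edgeR adjusted p of 0.869 and it turned to -0.11 without CDDP replicate 5 and to -0.15 without CDDP+ACBP replicate 3. The calls of Brca2, Chek2 and Ddb2 were lost without CDDP+ACBP replicate 3, and likewise without PBS replicate 5 or ACBP replicate 5, which leaves 4 genes each time, and that of Ddb2 also without CDDP replicate 5.

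CDDP+ACBP was also compared directly with CDDP, 2 groups that both received the drug. Of the 39 genes 10 were called (25.6%), 5 in each direction, beside 33.8% of all tested genes (14.9% higher, 18.8% lower). Higher with the ACBP pump were Chek2 (1.62 ± 0.35, edgeR adjusted p = 0.000959), Brca2 (1.19 ± 0.29), Fanca (1.11 ± 0.25), Atm (1.04 ± 0.35, adjusted p = 0.0241) and Ddb2 (0.48 ± 0.15). Lower were Brca1 (-1.80 ± 0.41, edgeR adjusted p = 0.00141), Ddb1 (-1.34 ± 0.23), Chek1 (-1.16 ± 0.37), Lig1 (-0.88 ± 0.32) and Rad23b (-0.62 ± 0.16). Polk was at -0.13 ± 0.27 (adjusted p = 0.749). This comparison shares the CDDP libraries with CDDP against PBS. Without CDDP replicate 5, 6 genes were called, with the calls of Atm, Ddb2, Chek1 and Lig1 lost, and the share of all genes in that fit is not given here. Without CDDP+ACBP replicate 3, Atm (0.77, adjusted p = 0.104) and Ddb2 (0.36, adjusted p = 0.0770) did not pass in edgeR and Xpc did (-0.56, adjusted p = 0.0276). All CDDP+ACBP libraries lay above all CDDP libraries for Brca2 and Chek2 and below them for Ddb1, Rad23b and Brca1, while 6.02% and 8.09% of all genes did so. The sum over the 16 p53 targets was 721 to 3180 CPM in CDDP, 228 to 672 in CDDP+ACBP and 194 to 290 in PBS. The lowest CDDP+ACBP sum, in replicate 4, lay within the ACBP range of 184 to 263 CPM, and the next lowest was 344.8. Without CDDP+ACBP replicate 4 no repair gene was called in CDDP+ACBP against ACBP either, and the interaction calls of Brca2 and Ddb2 were lost.

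CDDP was set against CRS under the same PBS pump. Of the 39 genes 9 were called (23.1%), 6 higher and 3 lower, beside 34.6% of all tested genes (19.5% higher, 15.1% lower). Ddb1 (1.50 ± 0.23, edgeR adjusted p = 1.79e-05), Polk (1.42 ± 0.28, adjusted p = 0.000315), Lig1 (1.37 ± 0.33), Xpc (0.55 ± 0.19), Msh6 (0.49 ± 0.19) and Rad23b (0.48 ± 0.16) were higher with cisplatin, in log2 units. Lower were Brca2 (-1.60 ± 0.29), Fanca (-1.34 ± 0.25) and Trp53bp1 (-0.44 ± 0.15). Brca1 did not pass here (0.91 ± 0.40, edgeR adjusted p = 0.0730), and 3 of its CRS libraries read 2.70 to 3.40 CPM, above all PBS libraries. With the 9 libraries highest in muscle or brain RNA left out, 5 genes were called. That fit kept 4 CDDP and 3 CRS libraries, and the share of all genes called in it is not given here. Without CDDP replicate 5 the calls of Xpc, Msh6 and Trp53bp1 were lost and Ercc1 was gained as higher, and without CDDP+ACBP replicate 3 Rad50 was gained as lower. The call of Msh6, at an edgeR adjusted p of 0.0468, held in 11 of 38 alternative analyses, that of Xpc in 31, Rad23b in 33 and Trp53bp1 in 34, and the other 5 in all 38.

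CRS and the ACBP pump alone left the repair genes without a call. In CRS against PBS 0 of 39 were called beside 0.141% of all tested genes, and in ACBP against PBS, CRS+ACBP against ACBP, CRS+ACBP against CRS and the interaction of CRS with the pump 0 of 39 beside 0% of all genes. At an unadjusted p under 0.05, edgeR's test held 1 gene in CRS against PBS (8.97% of all genes), 1 in ACBP against PBS (4.38%), 2 in CRS+ACBP against ACBP (7.32%), 3 in CRS+ACBP against CRS (2.87%) and 1 in the interaction (2.38%). Limma voom called 1 gene in CRS against PBS, Rev3l, which edgeR placed at -0.53 ± 0.19 (adjusted p = 0.383). DESeq2 called none in these 5 comparisons, and limma voom none in the other 4. Xpc in ACBP against PBS was at -0.41 ± 0.19 (adjusted p = 0.999). Log2 fold changes over the 39 genes spanned -0.53 to 0.81 in CRS against PBS and -0.64 to 0.33 in ACBP against PBS.

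Other genes of the same pathways were read from 10 lists. In CDDP against PBS between 16.7% and 42.9% of a list's tested genes were called, beside 41.4% of all genes, except for the p53 targets at 93.8% and the further translesion genes at 100%. Further nucleotide excision repair genes had 4 higher and 1 lower of 15, among them Rpa1, the large subunit of the single-strand binding protein (12.9 ± 1.28 to 22.4 ± 3.94 CPM, means ± SD, n = 5), and Mnat1, a subunit of the TFIIH kinase (3.04 ± 0.854 to 7.18 ± 2.83). Further Fanconi genes had 3 higher and 2 lower of 13, with Usp1, which removes ubiquitin from FANCD2 (7.05 ± 0.49 to 19.3 ± 7.3 CPM), and the nuclease subunit gene Eme1 (21.6 ± 2.96 to 48 ± 7.86 CPM) higher. Further recombination genes had 3 higher and 1 lower of 10, including Rad54l (18.1 ± 1.49 to 24.7 ± 5.46 CPM) and the end-resection factor Rbbp8 (6.36 ± 0.978 to 11.2 ± 4.75 CPM). All 5 further translesion genes tested were called, 3 higher and 2 lower. Mad2l2, the small partner of REV3L in polymerase zeta, stood at 9.66 ± 1.99 CPM in PBS and 28.6 ± 8.64 in CDDP, and Pcna, the sliding clamp, at 16.1 ± 3.11 and 33.7 ± 12.2.

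Mismatch repair had 0 higher and 1 lower of 6, Msh3 (19.8 ± 4.31 to 10.6 ± 4.25 CPM). End joining had 2 higher and 1 lower of 7, with the ligase cofactor Xrcc4 (1.97 ± 0.868 to 4.42 ± 1.06 CPM) higher and the nuclease gene Dclre1c, which encodes Artemis (11 ± 1.86 to 5.73 ± 1.2 CPM), lower. Base excision repair and direct reversal had 5 higher and 1 lower of 16, led by the endonuclease gene Apex1 (15.8 ± 3.52 to 34.1 ± 9.65 CPM) and the uracil glycosylase gene Smug1 (6.56 ± 1.22 to 10.5 ± 2.59 CPM). Further sensing genes had 3 higher and 1 lower of 12, with the clamp loader Rad17 (8.78 ± 1.62 to 14.6 ± 4.24 CPM) and the checkpoint clamp subunit Rad9a (48.5 ± 3.89 to 66.4 ± 10.1 CPM) higher.

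Targets of p53 had 15 of 16 higher and none lower in CDDP against PBS, with a median log2 fold change of 2.39. Cdkn1a, the inhibitor of cyclin-dependent kinases, stood at 3.23 ± 2.93 CPM in PBS and 311 ± 129 in CDDP, and the nuclease gene Aen at 11.7 ± 1.89 and 64.4 ± 14.6. In CDDP+ACBP against ACBP 4 of the 16 were called, all higher (Aen, Eda2r, Tnfrsf10b and Mdm2), and the median was 1. Genes of S phase and mitosis had 2 higher and 4 lower of 20 in CDDP against PBS, with the replicative helicase subunit Mcm6 higher (3.02 ± 0.64 to 8.61 ± 4.28 CPM) and the transcription factor E2f8 lower (5.88 ± 1.14 to 2.08 ± 1.31 CPM). Their summed level was 79.3 to 85.8 CPM in PBS and 82.9 to 104 in CDDP. In CDDP+ACBP against ACBP, 0 genes of the other 9 lists were called.

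**Figure D4:**
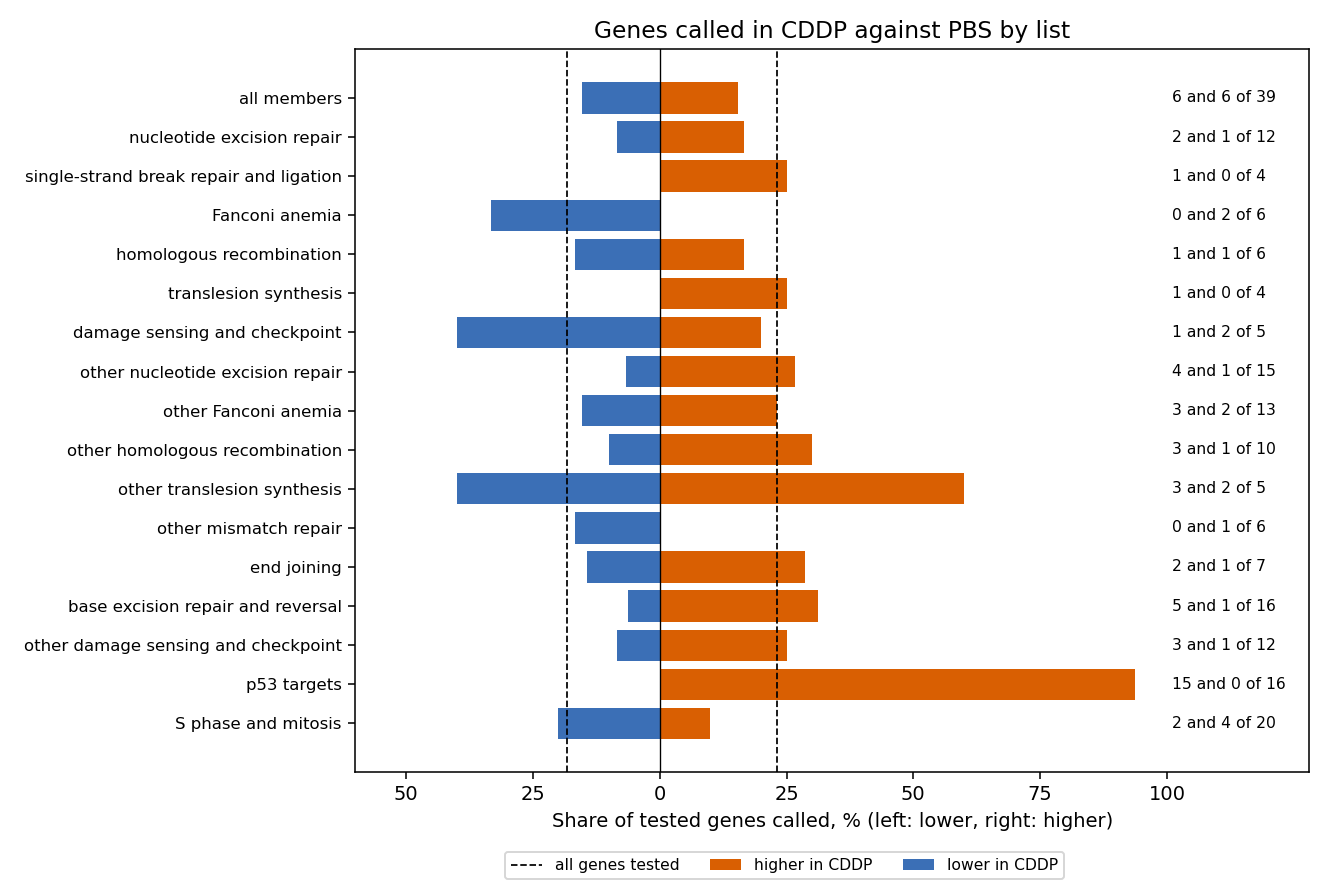
Share of tested genes called in CDDP against PBS for each list with more than 1 tested gene, lower to the left (blue) and higher to the right (orange). Rrm2b and Msh6, each alone in its role, have no bar of their own. Counts (higher and lower of tested) stand at the right edge, and dashed lines mark the share of all tested genes, 18.3% lower and 23.1% higher. The 15 of 16 p53 targets stand far beyond the dashed line, while the 39 repair genes, 6 higher and 6 lower, do not reach either line.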

How the data were processed

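A single count table held the 30 liver libraries, 5 in each of 6 groups. Per the labels, the libraries were strand-specific. Per the submitters' processing notes, HISAT2 2.2.1 and HTSeq 2.0.3 were used with build mm10. The authors deposited whole-number counts for each gene without normalization. Neither the annotation nor the strand setting of the counting is given in the sources used here. Of the 48440 genes 99.2% matched GENCODE vM21, the source of coordinates and exon lengths, and 5 summary lines entered neither library sizes nor tests (43.4% of reads on no feature and 1.67% ambiguous, as medians). A median of 38.0% of reads fell on genes. Because 21 of the 40 genes share exon bases with another annotated gene, their counts can hold its reads or lack reads left out as ambiguous. Which of these occurred depends on the strand setting and was not tested.

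Tests on the counts used edgeR 4.0.16 under R 4.3.3 (TMM, filterByExpr, quasi-likelihood F test) with 6 group means fitted to all libraries (24 residual degrees of freedom). Adjustment was by Benjamini-Hochberg over 16304 genes within each of 10 comparisons, with a threshold of 0.05. The approximate SE is the size of a log2 fold change over the root of its F statistic. Replicates differed by a chi-square of at least 22.9 per degree of freedom, so no library repeated another of its group, and by up to 283 in CDDP and 79.7 in PBS.

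Groups came from the treatment labels, which name no batch and pair no libraries. The members and lists were chosen with earlier results of these data known. Values in every library are given, for each role, for up to 3 called genes with the largest log2 fold change in CDDP against PBS and up to 2 uncalled genes with the highest level; for uncalled genes, groups other than PBS and CDDP are mostly given by range. From other lists up to 2 called genes with the smallest p are named; Xpc, Ercc8 and the p53 targets called under the ACBP pump were named after their values were seen. Alternatives were RLE scaling, no filter, 1 CPM in 5 libraries, DESeq2 1.42.0, limma 3.58.1 voom with quality weights, and a fit restricted to the compared groups. Each of the 30 libraries was also left out in turn, so that most of the 38 alternatives are single omissions. Many of these leave out a library from outside the groups compared, and are then a weak check of a call. Fits chosen after seeing the data left out the 9 libraries highest in muscle or brain RNA, or both CDDP replicate 5 and CDDP+ACBP replicate 3. Promoters were read with Python 3.11.15 from RefSeq's table.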

Additional observations from a re-analysis of the deposited data

Results flagged for a closer look

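Within groups of 5, Dixon's criterion was met by 11 of 156 gene and group combinations among the repair genes that were examined, where chance at 1 in 20 gives 7.8. CDDP replicate 5 was far from its group for Ercc2 (53.2 CPM, high) and Trp53bp1 (19, low). CDDP+ACBP replicate 3 was high for Fancg (5.82 CPM) and Rev3l (17.8). In ACBP, replicate 1 was low for Rev1 (27.9 CPM), replicate 2 high for Rev3l (15.8), replicate 3 low for Fanca (37.2) and replicate 4 high for Brca1 (2.66). CRS replicate 4 was high for Brca2 (22.5 CPM), CRS+ACBP replicate 1 was high for Lig3 (27.4), and CRS+ACBP replicate 4 was low for Parp1 (16.3).

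The interaction of cisplatin with the pump was called in edgeR for 7 of the 39 tested repair genes, beside 19.7% of all tested genes. In log2 units the effect differed for Ddb1 by -1.34, Brca1 by -1.89, Rad23b by -0.80, Ddb2 by 0.67, Brca2 by 1.18, Fanca by 1.36 and Chek2 by 1.47. Of these, Rad23b passed in all 38 alternative analyses, Ddb1 and Fanca in 37, Brca1 in 36, Brca2 and Chek2 in 26 and Ddb2 in 25.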

How the results depend on the processing

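No paired analysis was possible because the labels pair no libraries and replicate numbers follow accession order. None of the repair genes' log2 fold changes changed sign past the threshold in the alternatives run. In CDDP against PBS the calls of Ddb1, Rad23b, Fanca, Brca1, Brca2 and Polk held in all 38 alternatives, Chek2 in 36, Ddb2 in 34, Fancg in 33, Chek1 in 29, Lig1 in 28 and Trp53bp1 in 26. A fit of only the groups compared called 7 genes there (4 higher, 3 lower) and 5 in CDDP+ACBP against CDDP. Limma voom called 3 genes in CDDP+ACBP against CDDP, 4 in the interaction of cisplatin with the pump, 1 in CDDP+ACBP against ACBP and 1 in CRS against PBS, and DESeq2 called 1 in CDDP+ACBP against ACBP. In the interaction, limma voom lost the calls of Fanca, Brca2, Chek2 and Ddb2 and gained Fancg. With the 9 libraries highest in muscle or brain RNA left out, 5 genes were called in CDDP against CRS and 4 in the interaction. Leaving out single libraries gave 8 to 13 calls in CDDP against PBS, 0 to 1 in CDDP+ACBP against ACBP, 6 to 13 in CDDP+ACBP against CDDP (6 without CDDP replicate 5), 6 to 10 in CDDP against CRS, 4 to 9 in the interaction, and 0 in the other 5 comparisons. These counts stand without the share of all genes called in the same fit, and describe only how stable the calls were. The causes of these shifts were not tested. At the depth of these libraries Fancd2, Rad51c, Palb2 and Chek1 rest on few reads.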
